A study of Mus musculus with 42 samples.

Results

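Expression of 8 interferon-stimulated genes, Zbp1, Ifit1, Ifit3, Rsad2, Isg15, Usp18, Irf7, and Ifi44, was examined in livers of pubertal mice in relation to diet and to Zeitgeber time (ZT, hours after lights on). These 8 genes were taken by gene name from a table of read counts that holds 54532 genes, and levels were read only in libraries with more than 10000 CPM (counts scaled to a common library total) of albumin mRNA (Alb), the main transcript of hepatocytes. The list was chosen by earlier measured values of these data, namely that Zbp1 was higher on the high-fat diet at ZT 0, so the diet difference at ZT 0 is described here without a test. All 8 genes passed the filter on low counts, with mean counts per liver library of 195 to 944.

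Type I interferons act on a cell surface receptor made of IFNAR1 and IFNAR2, which signals through JAK kinases to a transcription factor complex. This complex binds the interferon-stimulated response element, a pair of GAAA repeats, near the start of genes whose products limit viral RNA, viral translation, and infected cells. Hepatocytes and resident macrophages (Kupffer cells) of the liver both carry the receptor, and low expression of these genes without infection is a known feature of normal tissue.

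The 2 diets were AIN93G, a purified diet whose soybean oil supplied 16% of energy, and a modified AIN93 high in fat (HFD), whose soybean oil supplied 45%. Group-housed female C57BL/6 mice (C57BL/6NHsd in the methods of the study), 3 weeks old at the start, were kept on AIN93G for 2 days and on their own diet for 3 weeks, and received ketamine/xylazine before exsanguination. From a 48 h collection at 4 h intervals, the first 24 h were sequenced, with 1 library for each of 3 mice per diet and time point. The labels name no genetic change in either group. Total counts were 14592481 to 21368409 per library. Of 42 libraries labelled liver, 32 exceeded the Alb minimum and 10 did not, the lowest of the former having 66434 CPM and the highest of the latter 81 CPM. Those 10 were every AIN93G library of ZT 16 and ZT 20 and 2 of 3 libraries per diet at ZT 24, so the diets could be compared in liver only at ZT 0, 4, 8, and 12, and the night of ZT 16 and ZT 20 is represented by the HFD alone. At ZT 12, 2 of 6 libraries are labelled as light phase and the others as dark phase. The clock gene Nr1d1 divided them in another way, at 11.95 to 15.33 CPM in 3 libraries and 1.686 to 5.588 CPM in the other 3. The lower 3 held both light-phase libraries and a dark-phase library of AIN93G (2.735 CPM). The members' diet and time tests and pair correlations that include ZT 12 are therefore also given without it.

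The response element is visible in the promoters of 4 of the members. RefSeq promoter windows (build GRCm38.p6) were found for 6 members, not for Zbp1 or Usp18, and the 250 bases before the start of transcription were searched on both strands for GAAANNGAAA. Isg15 had 3 overlapping matches, Ifit1 and Ifit3 had 2 each, Rsad2 had 1, and Irf7 and Ifi44 had none. Among all 27025 genes with a window, 3.46% had at least 1 match and 0.211% had 2 or more, and 3 was the most in any gene. Of 56 other interferon-stimulated effector genes with a window, 26 had a match. The windows below are shown because they carry the only sequence feature searched for in the members. They cover the 150 bases before the start, 5′ to 3′, with matching bases in capitals (TTTCNNTTTC is the same motif read on the other strand, and the first match of Ifit3 is cut by the edge of the window).
Ifit1 promoter, chr19:34640739-34640888, plus strand: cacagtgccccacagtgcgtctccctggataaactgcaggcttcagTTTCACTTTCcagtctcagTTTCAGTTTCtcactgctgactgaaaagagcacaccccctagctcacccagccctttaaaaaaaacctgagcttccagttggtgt
Ifit3 promoter, chr19:34583379-34583528, plus strand: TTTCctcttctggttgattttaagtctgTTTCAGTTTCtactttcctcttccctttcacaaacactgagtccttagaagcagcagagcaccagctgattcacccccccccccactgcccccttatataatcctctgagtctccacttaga
Isg15 promoter, chr4:156200819-156200968, minus strand: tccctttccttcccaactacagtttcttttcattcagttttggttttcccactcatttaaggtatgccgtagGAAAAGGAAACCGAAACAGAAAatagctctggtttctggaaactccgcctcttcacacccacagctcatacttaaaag
Rsad2 promoter, chr12:26456453-26456602, minus strand: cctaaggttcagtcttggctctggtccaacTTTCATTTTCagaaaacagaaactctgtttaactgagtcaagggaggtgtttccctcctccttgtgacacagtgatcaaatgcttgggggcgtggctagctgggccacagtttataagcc
A match describes the sequence and does not show that the complex was bound in these livers.

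All 8 genes were expressed at low to moderate levels. Scaled to gene length and averaged over the 32 liver libraries, Isg15 was the most abundant at 28.1 RPKM (CPM per kilobase of gene length), followed by Ifit3 at 20.1, Irf7 at 15.2, and Ifit1 at 12.5 RPKM. Usp18 (6.88 RPKM), Zbp1 (5.25 RPKM), Rsad2 (4.97 RPKM), and Ifi44 (1.92 RPKM) were lower. On the CPM scale, used for each gene from here on, the highest liver library exceeded the lowest by 6.66-fold for Rsad2, 6.20-fold for Ifit1, 5.45-fold for Isg15, 3.83-fold for Zbp1, 3.56-fold for Ifi44, 3.30-fold for Ifit3, 2.98-fold for Usp18, and 2.50-fold for Irf7. The plot of levels by library shows how much of this range lay within groups of 3 mice of the same diet and time point.

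**Figure D1:**
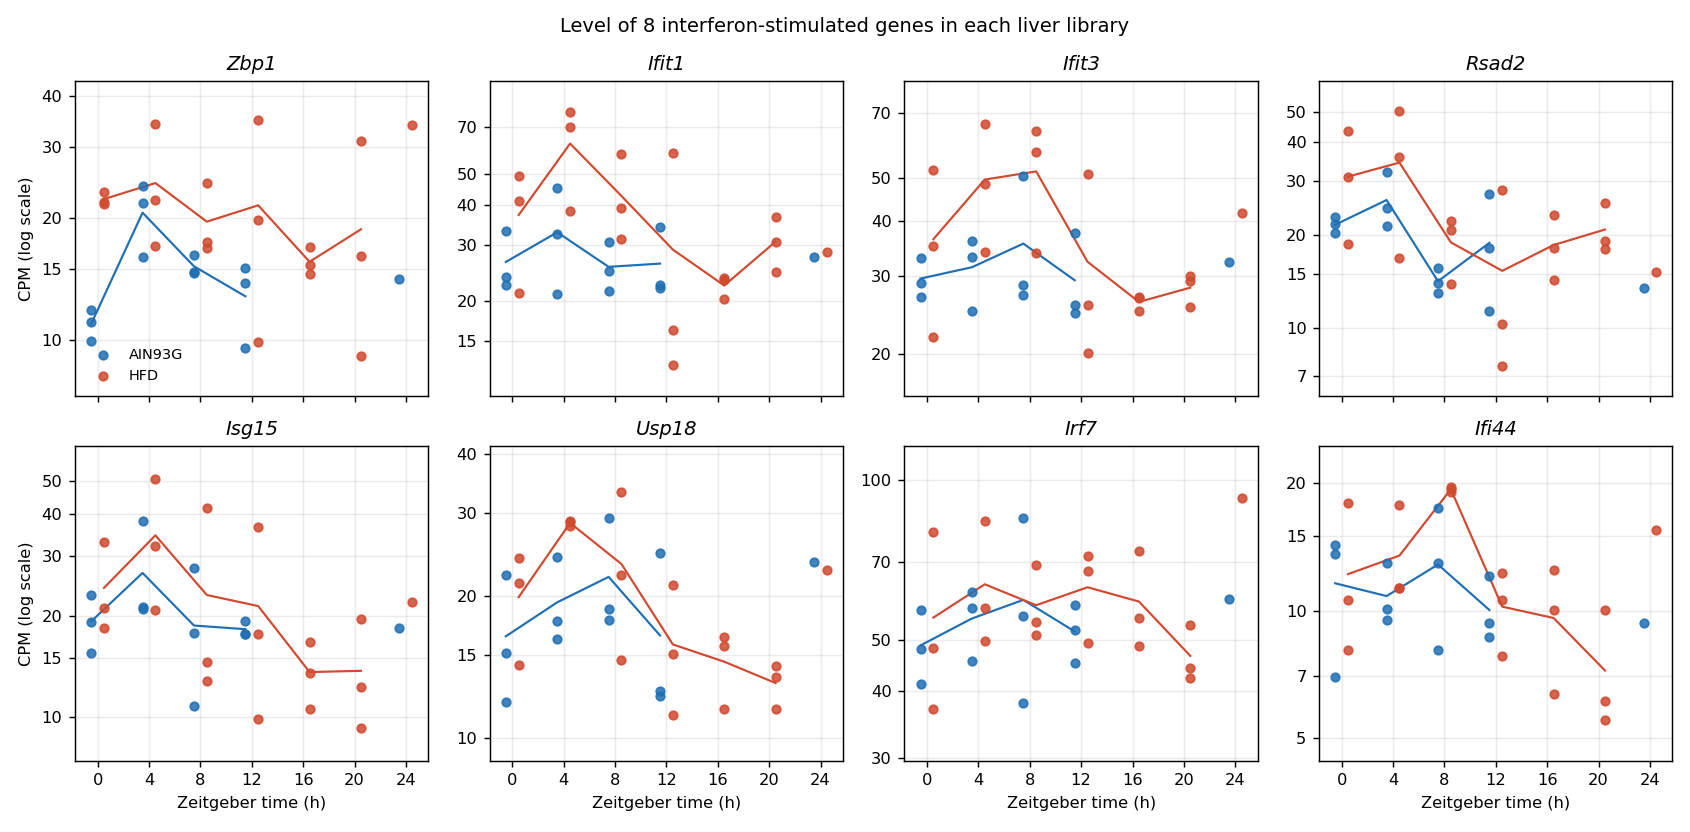
CPM (log axis) of each gene in every liver library against Zeitgeber time in hours, with 1 point per mouse, AIN93G in blue and HFD in red, and lines through the means of groups of 3. The 3 HFD points of Zbp1 at ZT 0 lie above the 3 AIN93G points, whereas the points of most other genes and times overlap between the diets.

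Zbp1 encodes a sensor of left-handed double-stranded nucleic acid that can start necroptosis. It is on the minus strand of chromosome 2 (mm10, 173206612 to 173218923, ENSMUSG00000027514). At ZT 0 its level was 9.95, 11.06, and 11.85 CPM in the AIN93G livers and 21.6, 21.96, and 23.23 CPM in the HFD livers. The 3 HFD livers were thus above all 3 AIN93G livers, and the ratio of means was 2.03 (22.26 ± 0.855 against 10.96 ± 0.956 CPM, SD, n = 3). Absence of overlap with higher values on the HFD was found for 809 of 12000 genes at ZT 0, or 6.74%, and 70 genes had a larger log2 fold change than the 1.02 of Zbp1. None of the other 7 genes separated the diets at ZT 0, the largest ratio among them being 1.43 (Rsad2).

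Transcripts of Kupffer cells and other macrophages were also higher on the HFD at ZT 0. The sum of 12 marker genes was 618.6, 657.8, and 716.5 CPM in the AIN93G livers and 750.8, 808.0, and 1418 CPM in the HFD livers, so 1 HFD liver lay far above the others. All 12 had a higher mean on the HFD (50.0% of all genes did by fitted value) and 5 of them did not overlap (6.74% of all genes), namely Adgre1 (ratio 2.05), Cd5l (1.80), the growth factor receptor gene Csf1r (1.49), and the Kupffer cell genes Vsig4 (1.24) and Clec4f (1.21). No defining marker of the list was near 0 in the liver libraries. Zbp1 was 21.96 CPM in the HFD liver with the sum of 1418 CPM. It was 21.6 and 23.23 CPM in the HFD livers with sums of 750.8 and 808.0 CPM. The part of macrophages in the Zbp1 difference was not tested, and in whole tissue more cells of a type and more mRNA per cell cannot be told apart.

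At later times, Zbp1 was lowest in the livers fed AIN93G at ZT 12 (12.82 ± 2.88 CPM, SD, n = 3) and highest at ZT 4 (20.61 ± 4.11 CPM), near the HFD mean at ZT 4 of 24.39 ± 8.73 CPM. At ZT 8 the diets did not overlap (AIN93G 14.66, 14.73, and 16.21 CPM against HFD 16.87, 17.47, and 24.41 CPM). Such absence of overlap with higher values on the HFD was found for 6.53% of all genes. The log2 fold change of Zbp1 there was 0.365 (SE 0.35, edgeR adjusted p = 0.692), and 0.175 without replicate 2 of the HFD. At ZT 12 and ZT 20 the HFD livers ranged widely, from 9.867 to 34.83 CPM and from 9.105 to 31.04 CPM. The single liver libraries of ZT 24 had 14.15 CPM on AIN93G and 34.0 CPM on the HFD. In the HFD library the macrophage sum was 1063 CPM, against 583.8 CPM on AIN93G.

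Differences between the diets outside ZT 0 were tested over ZT 4, 8, and 12 in edgeR by its quasi-likelihood F-test, with Benjamini-Hochberg adjustment over 12000 genes. None of the 8 genes passed an adjusted p-value threshold of 0.05 in edgeR, where 1 of all genes tested did (0.00833%). Without the filter on low counts, Ifit1 passed in edgeR (log2 fold change 0.607, edgeR adjusted p = 0.0208), as did 0.323% of the 30352 genes then tested. With the filter, DESeq2 called 14 genes and none of the 8. All 8 had a higher fitted mean on the HFD, as did 46.5% of all genes, and the median log2 fold change was 0.31 for the members and -0.01 for all genes. An unadjusted p-value under 0.05 with higher values on the HFD was found for 3 of 8 members and for 2.53% of all genes. Those 3 were Ifit1 (log2 fold change 0.60, SE 0.24, edgeR adjusted p = 0.740), Ifit3 (0.45, SE 0.19, edgeR adjusted p = 0.757), and Zbp1 (0.45, SE 0.20, edgeR adjusted p = 0.825). The members share libraries and move together, as described below, so their counts are not independent of one another. For the other members the log2 fold change was 0.15 (Irf7, SE 0.15) to 0.31 (Ifi44, SE 0.19).

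These pooled values depended on ZT 12 and on single libraries, with Ifi44 the only member whose value no single library moved by over 1.5 times. Without replicate 3 of the HFD at ZT 12, the log2 fold change was 0.27 for Ifit1, 0.28 for Ifit3, and 0.27 for Zbp1, and none of the 8 members had an unadjusted p-value under 0.05 in edgeR (8.07% of all genes did in that fit). Isg15, Usp18, and Rsad2 then came to 0.09, 0.11, and -0.09, and the median over the members was 0.20. Without all ZT 12 libraries, Ifit1 was at 0.83 (SE 0.22, edgeR adjusted p = 0.196), Ifit3 at 0.60 (SE 0.20), Ifi44 at 0.46, Rsad2 at 0.41, Isg15 at 0.34, Usp18 at 0.33, Zbp1 at 0.30, and Irf7 at 0.09. The median was then 0.37, and 2 members (Ifit1 and Ifit3) had an unadjusted p-value under 0.05, as did 10% of all genes in that fit. Libraries of other groups moved the pooled values too. Without replicate 2 of the HFD at ZT 8, Isg15 came to 0.05 and Usp18 to 0.08, and without replicate 2 of the HFD at ZT 4, Isg15 came to 0.17, Rsad2 to 0.04, and Irf7 to 0.07. Irf7 was at 0.07 or 0.27 without replicate 1 or 3 of AIN93G at ZT 8, and Usp18 at 0.33 without replicate 1 of AIN93G at ZT 12. Rsad2 was at 0.08 or 0.29 without replicate 1 or 3 of AIN93G at ZT 12, and at 0.28 without replicate 1 of the HFD at ZT 4 or replicate 2 of the HFD at ZT 12.

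Ifit1 and Ifit3 encode proteins with tetratricopeptide repeats, IFIT1 binding viral RNA that lacks host cap methylation and IFIT3 acting as its partner. Both are on the plus strand of chromosome 19 (Ifit1, 34640871 to 34650009, ENSMUSG00000034459, and Ifit3, 34583531 to 34588731, ENSMUSG00000074896). Ifit1 at ZT 4 was 21.01, 32.41, and 45.14 CPM on AIN93G and 38.37, 70.28, and 78.23 CPM on the HFD. Here 2 of 3 HFD livers were above every AIN93G liver. At ZT 8 the groups did not overlap, with 21.44, 24.8, and 30.56 CPM on AIN93G and 31.21, 39.19, and 57.62 CPM on the HFD. The highest AIN93G liver lay just under the lowest HFD liver, and the log2 fold change of 0.74 had an SE of 0.41 and came to 0.46 without replicate 3 of the HFD. At ZT 12 the HFD livers had 12.63, 16.26, and 58.09 CPM, the highest being the library labelled as light phase, and without it the fitted difference changed sign, from 0.14 to -0.86 on the log2 scale. Ifit3 means on the HFD were 49.56 ± 16.1 CPM at ZT 4 and 51.71 ± 15.8 CPM at ZT 8, against 31.39 ± 5.76 and 35.5 ± 13.1 CPM on AIN93G (SD, n = 3), with overlap at both times. Reads of Ifit3 are uncertain because a near-identical copy, Ifit3b (8.41 CPM), lies beside it.

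Rsad2 encodes viperin, a radical SAM enzyme that makes a chain terminator of viral RNA synthesis. It is on the minus strand of chromosome 12 (26442746 to 26456452, ENSMUSG00000020641). It was 20.29, 21.69, and 22.99 CPM on AIN93G at ZT 0 and 12.98, 13.98, and 15.68 CPM at ZT 8, so the 3 livers of ZT 8 were below the 3 of ZT 0, as for 11.8% of all genes. The HFD livers were more dispersed, with 16.91, 35.75, and 50.48 CPM at ZT 4 and 7.576, 10.37, and 28.13 CPM at ZT 12. Between the diets, log2 fold changes of Rsad2 were 0.40 (SE 0.39) at ZT 4, 0.42 (SE 0.40) at ZT 8, and -0.30 (SE 0.40) at ZT 12. The value at ZT 4 rested on single livers, coming to 0.02 without replicate 2 of the HFD and 0.73 without replicate 1. At ZT 12 it was -1.08 without replicate 3 of the HFD and 0.05 without replicate 3 of AIN93G.

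Isg15 encodes a ubiquitin-like protein that is attached to newly made proteins, and Usp18 encodes the protease that removes it and also holds back signalling at IFNAR2. Isg15 is on the minus strand of chromosome 4 (156199424 to 156200818, ENSMUSG00000035692) and Usp18 on the plus strand of chromosome 6 (121245906 to 121270917, ENSMUSG00000030107). Isg15 had the largest replicate SD of the members, 0.593 on the log2 scale, and its diets overlapped at every time, with ratios of 1.17 to 1.29. Usp18 at ZT 4 was 28.19, 28.67, and 28.88 CPM on the HFD and 16.21, 17.72, and 24.22 CPM on AIN93G. This was the only member without overlap at ZT 4 with higher values on the HFD, as were 3.88% of all genes, and its log2 fold change of 0.56 (SE 0.30) had an edgeR adjusted p of 1.00. At ZT 8 and ZT 12 the ratios of means for Usp18 were 1.06 and 0.957.

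Irf7 encodes the transcription factor that amplifies interferon gene expression, and Ifi44 encodes an interferon-induced protein of the cytoplasm. Irf7 is on the minus strand of chromosome 7 (141262706 to 141266481, ENSMUSG00000025498) and Ifi44 on the minus strand of chromosome 3 (151730922 to 151749960, ENSMUSG00000028037). Irf7 had the smallest replicate SD of the members (0.346), and its ratios between the diets were 0.977 to 1.21. Its gene overlaps Phrf1 on the plus strand (28.6 CPM), and since the strand setting of the counting is not given in the sources used here, reads from the shared stretch cannot be told apart. Ifi44 at ZT 8 was 8.055, 12.98, and 17.53 CPM on AIN93G and 19.1, 19.42, and 19.62 CPM on the HFD. Zbp1, Ifit1, and Ifi44 were thus the 3 members without overlap at ZT 8 with higher values on the HFD, where 6.53% of all genes were. None passed adjustment there (0.0167% of genes did), the edgeR adjusted p of Ifi44 being 0.460, and at ZT 12 no member was free of overlap in that direction (5.05% of all genes).

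**Figure D2:**
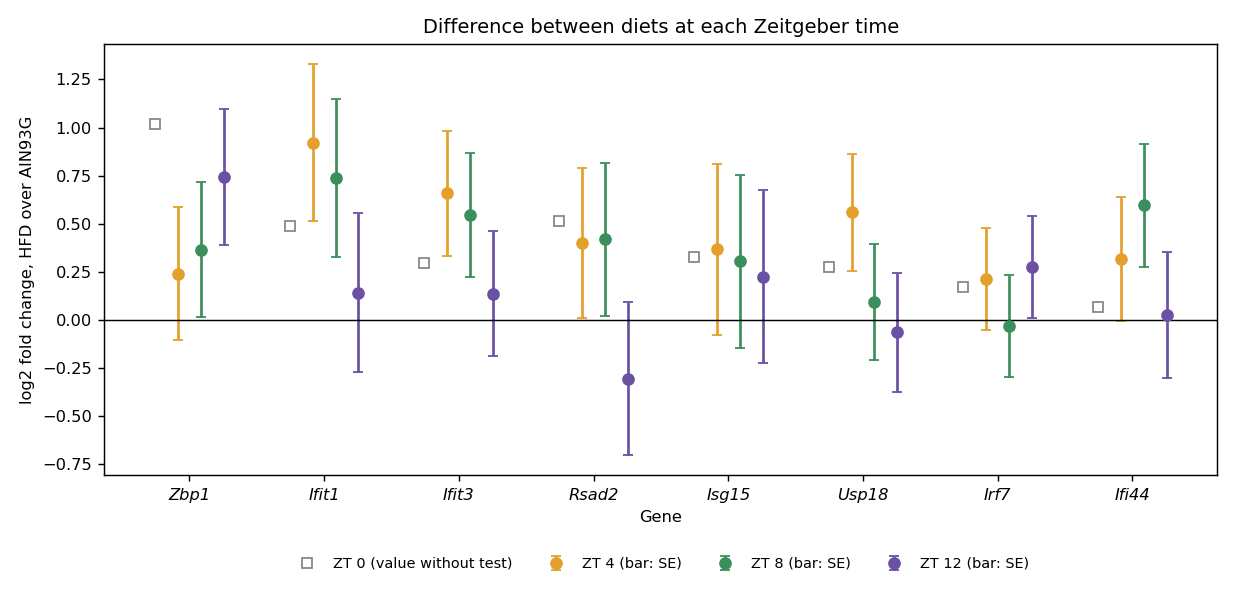
Log2 fold change of HFD over AIN93G for each gene at ZT 0 (open squares, value without test) and at ZT 4, 8, and 12 (points with SE bars, edgeR). At ZT 0 and ZT 4 all 8 values are above 0, at ZT 8 all except Irf7, and at ZT 12 all except Usp18 and Rsad2.

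At single time points outside ZT 0, none of the 8 genes passed adjustment. An unadjusted p-value under 0.05 with higher values on the HFD was found at ZT 4 for Ifit1 alone (1.16% of all genes), at ZT 8 for no member (4.92%), and at ZT 12 for Zbp1 alone (2.65%). For Ifit1 at ZT 4 the log2 fold change was 0.92 (SE 0.41), and for Zbp1 at ZT 12 it was 0.74 (SE 0.35, edgeR adjusted p = 0.664). Without replicate 3 of the HFD at ZT 12, the latter came to 0.21. No gene of the 12000 passed in edgeR at ZT 4 or ZT 12, although 299 and 896 had an unadjusted p-value under 0.05, and DESeq2 called 0 and 3.

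By direction alone, 8 members had a fitted value above 0 at ZT 4, 7 did at ZT 8, and 6 did at ZT 12, against 48.0%, 49.5%, and 49.7% of all genes. At each of these 3 times the value was above 0 for 5 members (Zbp1, Ifit1, Ifit3, Isg15, and Ifi44) and for 11.2% of all genes. At ZT 0, the contrast behind the choice of the list, all 8 were above 0 (50.0% of all genes), and nothing is read from this. Several of these signs rested on 1 library. Without replicate 3 of the HFD at ZT 12, Ifit1, Ifit3, and Isg15 came to -0.86, -0.36, and -0.40 on the log2 scale. Without replicate 2 of the HFD at ZT 4, Zbp1, Isg15, and Irf7 came to between -0.08 and -0.02.

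The time course of the HFD livers over ZT 4, 8, 12, 16, and 20 was tested in the same fit. For Ifi44 the test passed (edgeR adjusted p = 0.0464), and 4.91% of all genes passed. Its level was 13.5 ± 3.75 CPM at ZT 4 and 19.38 ± 0.264 CPM at ZT 8, and then 10.22 ± 2.24, 9.61 ± 3.09, and 7.21 ± 2.45 CPM at ZT 12, 16, and 20 (SD, n = 3). The 3 livers of ZT 8 were above every HFD liver of the other 4 times, as for 1.33% of all genes, and the mean of ZT 8 was 2.69-fold that of ZT 20. This call held in 14 of 36 alternative analyses, including 9 of the 30 that left out 1 library, where the edgeR adjusted p ranged from 0.0351 to 0.115. It was lost without replicate 1, 2, or 3 of the HFD at ZT 8, each left out in turn (0.0858, 0.0733, and 0.115), without 9 other HFD libraries of these times, and without any 1 of 9 libraries outside the comparison (0.0502 to 0.0556), which share its estimate of the spread.

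The other members did not pass in edgeR, whereas DESeq2 called Ifit1 (adjusted p = 0.0206), Ifit3 (0.0247), and Usp18 (0.00829) beside Ifi44, and 12.9% of all genes. By their means, Zbp1, Ifit1, Ifit3, Isg15, and Usp18, like Ifi44, were higher at ZT 4 and ZT 8 than at ZT 16 and ZT 20. Usp18 went from 28.58 ± 0.352 CPM at ZT 4 to 14.49 ± 2.63 at ZT 16 and 13.06 ± 1.38 CPM at ZT 20 (edgeR adjusted p = 0.0593), and all its ZT 4 livers were above all its night livers, as for 4.37% of all genes. It passed without replicate 1 of the HFD at ZT 8 (edgeR adjusted p = 0.0351) or replicate 1 of AIN93G at ZT 12 (0.0293). Ifit1 had 62.29 CPM at ZT 4 and 22.38 CPM at ZT 16, a ratio of 2.78, and Isg15 had 34.54 and 13.62 CPM at the same times, a ratio of 2.54. The edgeR adjusted p was 0.101 for Ifit1, 0.0977 for Ifit3, 0.154 for Isg15, and 0.209 for Rsad2. Zbp1 and Irf7 varied least, with ratios of the highest to the lowest mean of 1.56 and 1.36 and edgeR adjusted p of 0.626 and 0.646. Before adjustment, 5 of 8 members had a p-value under 0.05, as did 25.4% of all genes. Without replicate 3 of the HFD at ZT 12, Ifit1 (edgeR adjusted p = 0.00247), Ifit3 (0.0188), Rsad2 (0.0217), and Usp18 (0.0258) passed as well, and the share of all genes that passed was 9.47%. Without all ZT 12 libraries, Ifit1 (edgeR adjusted p = 0.0177), Usp18 (0.0211), and Ifit3 (0.0386) passed beside Ifi44, with 8.49% of all genes. The time comparison rests on 1 diet, and livers of AIN93G at ZT 16 and ZT 20 were not analysed here.

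Over ZT 4, 8, and 12 in both diets together, no member passed the test of time in edgeR (2.56% of all genes did), and 3 of 8 had an unadjusted p-value under 0.05 (20.2% of all genes did). Rsad2 came nearest (edgeR adjusted p = 0.0984), with means of 26.02 and 34.38 CPM at ZT 4 and 14.22 and 18.99 CPM at ZT 8 on AIN93G and HFD. DESeq2 called it (adjusted p = 0.0285) and 6.24% of all genes, and in edgeR it passed without the ZT 12 libraries (0.0252, edgeR adjusted p) and without replicate 3 of the HFD at ZT 12 alone (0.00786), as did Ifit1 in the latter case (0.00853). In these fits 5.03% and 5.83% of all genes passed. Without the filter on low counts, Rsad2, Ifit1, Isg15, Usp18, and Ifi44 passed in edgeR, as did 3.83% of the 30352 genes then tested.

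Mice of the same diet and time point differed in these genes more than in most. The median replicate SD of log2 CPM was 0.446 over the members, 0.259 over all genes tested, and 0.216 over the 5043 genes whose mean lay in the members' range of 11.8 to 57.3 CPM. Only 6.93% of genes had a larger SD than Isg15, 8.88% than Ifit1, and 9.81% than Rsad2, whereas 29.7% exceeded Irf7. Over ZT 0 to ZT 12, with 12 livers per diet, 6 of 8 members had a larger SD on the HFD, as did 57.7% of all genes. For Zbp1 the SD was 0.241 on AIN93G and 0.539 on the HFD, for Ifit1 0.383 and 0.757, and for Rsad2 0.354 and 0.726. Irf7 differed little (0.343 and 0.388), and Usp18 (0.439 and 0.422) and Ifi44 (0.436 and 0.383) went the other way. Replicates 2 and 3 of the HFD at ZT 12 deviated from their group mean by -0.934 and 0.873 for Zbp1 and by -0.851 and 1.34 for Ifit1. The SDs given here include ZT 12, and their differences between the diets were not tested.

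The spread was shared. Each liver was expressed as its deviation from the mean of its group in log2 CPM, and the deviations were correlated between members over the 30 livers in groups of 3, which hold 20 degrees of freedom. All 28 pairs had a positive Pearson r, with a median of 0.608 and a range of 0.194 (Zbp1 with Ifi44) to 0.840 (Ifit1 with Rsad2). Spearman's rho had a median of 0.558. For each pair, r was also computed without the 2 livers farthest from the median in 1 of its genes, so the livers left out differ between pairs. The median r was then 0.543 and the range 0.198 to 0.758. In a permutation test within groups (100000 resamples, two-sided, adjusted over the 28 pairs), 20 pairs passed by Pearson's r and 18 by Spearman's rho. As background, the mean r of a gene with the 8 members had a median of 0.0049 over all other genes, whereas each member's mean r with the other 7 was 0.393 (Ifi44) to 0.685 (Ifit3). The members are known targets of 1 pathway and share each library's depth and cell makeup, so these p-values are not independent evidence about the list.

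**Figure D3:**
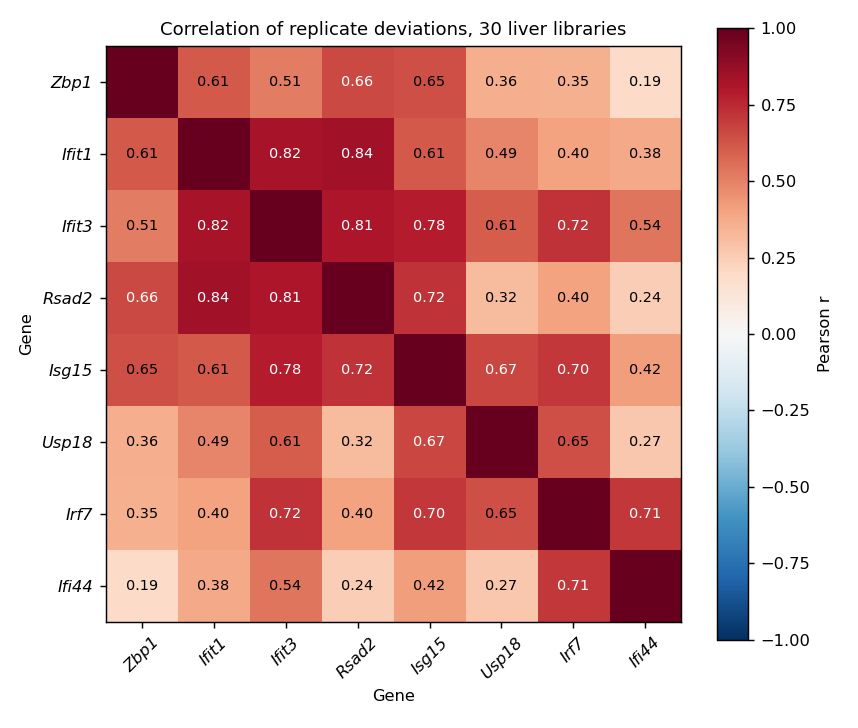
Pearson r between the deviations of each pair of genes from their group means over 30 liver libraries, on a color scale from -1 to 1. The 3 pairs among Ifit1, Ifit3, and Rsad2 are the highest (0.81 to 0.84), Ifi44 pairs most closely with Irf7 (0.71), and no pair is below 0.

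The correlations were also computed within each diet. Within the 18 HFD livers the median r was 0.629, all 28 pairs were positive, and 14 passed. Within the 12 AIN93G livers the median r was 0.458, 26 pairs were positive, and none passed. Whether the diets differ in this was not tested. Of the 30 livers, 4 had all 8 genes above their group mean and 5 had all 8 below. Replicate 3 of the HFD at ZT 12, labelled as light phase, stood highest, at a mean deviation of 0.715 on the log2 scale, and replicate 2 of the same group stood lowest at -0.644. Without the 3 HFD livers of ZT 12 the median r was 0.480, all 28 pairs stayed positive, and 11 passed. Without all 6 livers of ZT 12 the median r was 0.521, the lowest r was 0.0945, and 14 pairs passed.

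**Figure D4:**
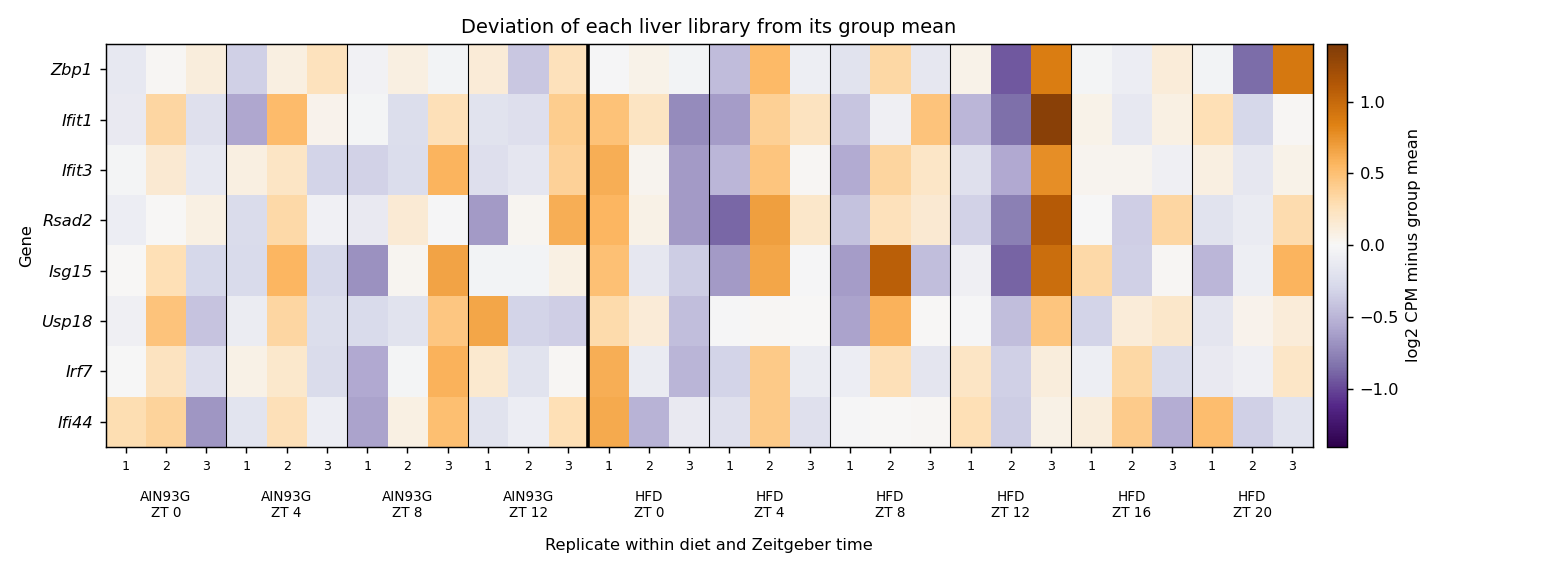
Deviation of each gene (rows) from its group mean in log2 CPM for 30 liver libraries (columns, 3 replicates per diet and Zeitgeber time, with a thick line between the diets). Columns of 1 color are livers in which all 8 genes lay on the same side of the group mean, such as replicates 2 and 3 of the HFD at ZT 12.

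The macrophage marker sum varied with the members. Over the same 30 livers, its deviations correlated with those of Irf7 (r = 0.751, rho = 0.773, permutation test adjusted p = 0.00208), Ifit3 (0.694, rho 0.651, adjusted p = 0.00613), Isg15 (0.692, rho 0.662, adjusted p = 0.00328), and Ifi44 (0.609, rho 0.610, adjusted p = 0.0149). The other 4 members did not pass, with r of 0.358 (Usp18), 0.367 (Zbp1), 0.474 (Ifit1), and 0.566 (Rsad2). Without the 2 livers farthest from the median in the macrophage sum, the first 4 had r of 0.660, 0.614, 0.658, and 0.502. The sum of 10 hepatocyte markers had r of -0.445 to 0.0165 and passed for none. These 16 relations, adjusted together, were computed after values had been seen. The macrophage sum was 445.0 to 1418 CPM over the 32 livers, the sum for plasmacytoid and other dendritic cells 12.0 to 20.95, for T and NK cells 3.37 to 8.69, and for neutrophils and monocytes 3.17 to 9.66 CPM, with Ly6g at 3 counts or fewer in every liver. The part of these cells in the members' spread was not tested.

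Outside the members, genes whose deviations were most like theirs, by mean r with the 8 over the 30 livers among 11992 genes, included Apol9a (0.713), Gbp3 (0.696), Apol9b (0.678), Dhx58 (0.662), and Irf9 (0.660). Others were Gbp6 (0.656), the pseudogene Gm12250 (0.655), Trim12c (0.642), and Xaf1 (0.638). Irf9 encodes an interferon regulatory factor, and Dhx58 encodes a sensor of viral RNA. Apol9a and Apol9b are near-identical copies whose reads may be split (r = 0.945 between them). All of these except Gm12250 and Trim12c were on the pathway lists described next.

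Genes of the interferon ligands were barely measurable. Of 21 ligand genes, 16 had no count in any of the 32 livers and 19 had at most 3 counts in every liver, where 3 counts correspond to 0.206 CPM in the shallowest library. Over 532425430 counts in all, Ifnb1 had 2 counts, Ifng 25, and Ifnk 128. Expression of the ligands was therefore not detectable or close to the limit at this depth. Receptor genes were well above it, with Ifnar1 at 44.15 CPM (log2 fold change between diets over ZT 4 to 12 of -0.01, SE 0.08) and Ifnar2 at 30.77 CPM (-0.03, SE 0.09).

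No gene of the pathway lists passed the diet test over ZT 4, 8, and 12 (edgeR), and 5.83% of all genes had an unadjusted p-value under 0.05 in either direction. Among 63 tested of 70 other interferon-stimulated effector genes, 50 had a higher fitted mean on the HFD, 4 had an unadjusted p-value under 0.05, and the median log2 fold change was 0.08. For the response to interferon gamma, 26 of 29 genes tested were higher (2 with an unadjusted p-value under 0.05, median 0.17). Of the macrophage markers, 11 of 12 were higher (none with an unadjusted p-value under 0.05, median 0.10), beside 46.5% of all genes and a median of -0.01. Genes of a list share the same libraries, so these counts are not independent of one another, and they are not given here without single libraries. At ZT 12 alone, 26 of 63 effectors were higher, with a median of -0.06, and 17 of 29 genes of the response to interferon gamma. Over the 3 times, of the receptors 1 of 5, of the JAK-STAT genes 3 of 6, and of the nucleic acid sensors and adaptors 7 of 14 were higher.

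In the time course of the HFD livers, 5 of 63 effector genes passed, beside 4.91% of all genes. Before adjustment, 22 of the 63 had an edgeR p-value under 0.05, beside 25.4% of all genes. So did 1 of 14 sensors and adaptors, 1 of 4 ISG15 conjugation genes, 1 of 7 of the ZBP1 cell death pathway, 1 of 10 negative regulators, and 1 of 6 JAK-STAT genes. None of 29 genes of the response to interferon gamma, 5 receptors, or 6 regulatory factors passed in edgeR, and 7, 1, and 2 of them had an unadjusted p-value under 0.05, where 25.4% of all genes did. Ddx60, a helicase linked to RNA sensing, had means of 22.2 and 22.4 CPM at ZT 4 and ZT 8 and 7.39 CPM at ZT 16 (edgeR adjusted p = 0.0149). Ifih1, the sensor MDA5, went from 78.7 CPM at ZT 8 to 38.03 CPM at ZT 16 (edgeR adjusted p = 0.0138), and Herc6, the ligase that attaches ISG15 in mice, from 28.8 to 13.3 CPM (edgeR adjusted p = 0.0359). All 3 had their lowest mean at ZT 16. Helz2 (edgeR adjusted p = 0.0141) had another order, with 217.1 CPM at ZT 4, 123.7 at ZT 12, and 212.9 CPM at ZT 20. Pml, which encodes the core of PML nuclear bodies, had 34.85 CPM at ZT 4 and 19.79 CPM at ZT 12 (edgeR adjusted p = 0.023). Casp6, of the ZBP1 cell death pathway, had 29.7 CPM at ZT 8 and 10.2 CPM at ZT 16 (edgeR adjusted p = 0.00277), whereas Zbp1 itself did not pass.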

How the data were processed

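Poly(A) RNA of 42 samples labelled liver was sequenced with paired ends. The authors deposited read counts per gene without normalization. The submitters' processing notes name fastp, STAR, HTSeq 0.6.1, DESeq, STAR-Fusion, and the build mm10. The strand setting is not given in the sources used here. Positions of the 8 members were identical in GENCODE M21.

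R 4.3.3 with edgeR 4.0.16 (limma 3.58.1, DESeq2 1.42.0) was used. Alb over 10000 CPM defined 32 liver libraries. The 12000 genes that averaged 25 or more counts over these were fitted in 10 groups of 3 (30 libraries) with TMM scaling and the quasi-likelihood F-test, at a Benjamini-Hochberg adjusted p under 0.05. The SE of a log2 fold change is its size divided by the square root of F. ZT 24 was outside the fit. Replicate deviations used log2 CPM with a prior count of 2. Replicate libraries differed beyond counting noise (chi-square divided by its degrees of freedom was at least 17.8 in 30 pairs), and p-values measure the spread between mice of 1 experiment. Counting floors (3 counts) cover counting error only. Scripts were tested on simulated data.

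The members and lists were chosen with earlier results of these data known. Genes named are the members, the 10 most alike, and per list up to 3 past each test or else the 2 of highest mean level. Among the most alike, 1 gene is not reported here. Nr1d1, Adgre1, Cd5l, Csf1r, Vsig4, Ly6g, Ifit3b, and Phrf1 were named after their values had been seen. As alternatives, DESeq2 was run, libraries were scaled by their size, and other filters, fits of only the libraries compared, other prior counts, leaving out ZT 12 or ZT 0, and leaving out each library were tried. Correlations within 1 diet or without the HFD livers of ZT 12 were added after values had been seen.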

Additional observations from a re-analysis of the deposited data

Results flagged for a closer look

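The 10 libraries labelled liver that fell below the Alb minimum (at most 81 CPM) belong to no comparison above, yet all 8 genes were measured in them, above the limit that a count of 0 allows. Values here are CPM scaled by library size. Median levels were 21.1 CPM for Zbp1, 28.27 for Ifit1, 62.69 for Ifit3, 11.44 for Isg15, 48.97 for Irf7, 15.14 for Usp18, 5.995 for Ifi44, and 20.63 CPM for Rsad2. Ifit3 ranged from 45.9 to 104 CPM there and from 19.2 to 66.9 CPM in the 32 livers (median 30.2 CPM). Ifi44 was 3.75 to 16.0 CPM there and 5.83 to 20.3 CPM in the livers (median 11.3 CPM). No test was made, since these libraries hold another tissue composition. Groups of 3 were not tested for outlying livers.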

How the results depend on the processing

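The number of genes called depended on the processing, and the cause was not tested. For diet over ZT 4, 8, and 12 it was 1, and 14 with DESeq2, 2 with library size scaling, 98 without the filter on low counts, 0 when only the libraries compared were fitted, and 0 to 48 when 1 library was left out (48 without replicate 1 of AIN93G at ZT 12). At ZT 4 it was 0, and 19 without the filter. At ZT 8 it was 2, and 30 with DESeq2, 183 without the filter, 0 with only the libraries compared, 7 without ZT 12, and 0 to 37 without 1 library (37 without replicate 2 of the HFD at ZT 8). At ZT 12 it was 0, and 3 with DESeq2, 78 without the filter, and 0 to 96 without 1 library (96 without replicate 1 of AIN93G). The time test over ZT 4, 8, and 12 called 307 genes, and 749 with DESeq2, 1162 without the filter, 24 with only the libraries compared, 604 without ZT 12, and 129 to 699 without 1 library. The HFD time test called 589, and 1548, 1550, 157, 1019, and 270 to 1136 in the same order, both time tests being lowest without replicate 3 of the HFD at ZT 8 and highest without its replicate 3 at ZT 12. Of 28 member pairs 20 passed, 0 with AIN93G only, 11 without the HFD livers of ZT 12, and 14 to 22 without 1 library.

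Of 1720 alternative values for the members, 23 crossed 0, 27 gained a call, and 22 lost one. Without the filter Ifit1 passed the diet test over ZT 4, 8, and 12 (edgeR adjusted p = 0.0208), all members except Zbp1 and Irf7 passed the HFD time test, and Rsad2 (6.46e-05), Ifit1 (0.0117), Usp18 (0.0394), Isg15 (0.0404), and Ifi44 (0.0468) passed the time test over ZT 4, 8, and 12. DESeq2 called Ifit1, Ifit3, Usp18, and Ifi44 in the HFD time test, and Rsad2 over ZT 4, 8, and 12. With only the libraries compared, Ifi44 lost its call (edgeR adjusted p = 0.0597). Log2 fold changes that crossed 0 when 1 library was left out had ranges of -0.0857 to 0.289 (Rsad2 over ZT 4, 8, and 12), at ZT 4 of -0.076 to 0.444 (Zbp1), -0.0171 to 0.709 (Isg15), and -0.0344 to 0.362 (Irf7), at ZT 8 of -0.45 to 0.69 (Isg15), -0.27 to 0.31 (Irf7), and -0.25 to 0.36 (Usp18), and at ZT 12 of -0.86 to 0.50 (Ifit1), -0.36 to 0.39 (Ifit3), -0.40 to 0.57 (Isg15), -0.33 to 0.35 (Usp18), -0.13 to 0.19 (Ifi44), and -1.08 to 0.0495 (Rsad2). Irf7 at ZT 8 was -0.03, and 0.00534 with library size scaling. No paired analysis was possible because the labels give no replicate numbers. A number in the titles, whose meaning they do not give, is shared by 13 livers across times, but by none between the diets and at most 1 between any 2 groups. Groups of 3 livers, large replicate SDs, and 1 diet at night limit what these tests could show.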
